A study of Nannochloropsis oceanica with 44 samples.

Results

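The interval from 12 h to 24 h after nitrogen was returned was followed in 2489 genes of the marine unicellular alga Nannochloropsis oceanica, all genes of the 4 tables used here. For each gene the step is its log2 value at 24 h of resupply minus its log2 value at 12 h of resupply. Every one of the 2489 genes was kept, and no further choice by the step was made here. The authors' own selection, described below, was not independent of the step. The 2 time points account for 8 of the 44 RNA-seq libraries in the labels.

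All groups were wild-type liquid cultures of strain CCMP1779 in F/2, a marine nutrient medium, under continuous light. Deprived cells (written N-) were washed and held in nitrogen-free F/2 for 6, 12, 24, 48 or 72 h. Resupplied cells (written NR) first spent 72 h without nitrogen, were then moved into F/2 containing nitrogen, and were harvested after the same 5 times. Both groups of the step, 12 h NR and 24 h NR, therefore carry the same 72 h of earlier deprivation. The labels give 4 libraries for each group and 2 biological replicates for each time, marked by a letter and a number whose roles are not stated.

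Nannochloropsis species are known for the oil they build up when nitrogen is withheld. Growth then stops, nitrogen-rich parts of the cell such as the photosynthetic machinery are cut back, and carbon is stored as triacylglycerol. When nitrogen returns, cells take it up, draw on the stored oil and rebuild what division and photosynthesis need.

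The deposited tables hold genes that passed the authors' test of resupply against deprivation or of its change with time, at a log2 fold change over 1 and an adjusted p below 0.01, per the labels. They were split by the authors into 4 clusters by k-means on the shape of the profile: 798 genes in cluster 1, 401 in cluster 2, 872 in cluster 3 and 418 in cluster 4. Each gene has 1 value per time, into which the authors joined the libraries, on a log2 scale inferred from the values, which run from 1.46 to 19.5. With 1 value per time there is no error, no n and no p-value for any difference below, and none could be set against the spread between cultures. A gene counts as higher or lower past a log2 difference of 1, a 2-fold difference. Read depth per library is unknown here. The files pair no identifier with a gene name or function, so genes are described by identifier, cluster and profile.

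Between 12 h and 24 h NR, 60.1% of the genes passed 2-fold in either direction. The authors selected these genes for differences between resupply and deprivation or their change with time. The share therefore describes the called genes and not all genes of the alga. Higher at 24 h were 1240 genes (49.8%) and lower were 255 (10.2%), with 994 within 2-fold. The median step over all genes was 0.99, with quartiles over genes of -0.33 and 3.10 and a range from -5.13 to 6.83. In a bulk culture more cells carrying a transcript and more transcript per cell cannot be told apart, and this holds for every value here. The median value of the whole column shifted up by 1.76 between the 2 times. That shift was larger than the median step of 0.99. Measured from it, the median step was -0.78, and 713 genes were higher (28.6%) and 1166 lower (46.8%). The balance of the step over all called genes thus turned with the scaling. Counts below are as deposited unless they are said to be centred, which means measured from the column medians.

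As deposited, large steps were mostly upward. Past 4-fold there were 923 genes higher and 30 lower, past 8-fold 655 and 3, and past 16-fold 378 and 2. Cluster 3 supplied 807 of the 923 genes, 645 of the 655 and 376 of the 378. All 64 genes that were more than 32-fold higher belonged to it. Clusters 2 and 4 had 49 and 67 genes past 4-fold upward and 5 each past 8-fold. After centring the balance turned: past 4-fold 444 genes were higher and 698 lower, past 8-fold 125 and 165, and past 16-fold 8 and 15. Cluster 3 then held 441 of the 444 higher genes, and cluster 1 held 613 of the 698 lower ones.

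Cluster 3 had the largest median step and overlapped the other clusters mainly in its lower part. Its lowest step was 1.02, and its quartiles over genes were 2.95 and 4.39 around a median of 3.78. Of the 1617 genes outside it, 15 had a step above its lower quartile. Below that the clusters met, with 65 genes of cluster 3 at a step of 2 or below and 49 genes of cluster 2 and 67 of cluster 4 above 2. The median steps were -0.61 in cluster 1, 0.75 in cluster 2 and 0.99 in cluster 4. The gap between the medians of clusters 3 and 1 was 4.38, or 20.9-fold, a distance that centring a column leaves as it is. Clusters 4 and 2 lay 0.24 apart and clusters 4 and 1 lay 1.60 apart. The clusters were formed from profiles that include both times, so these gaps describe the clusters and are no separate finding.

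**Figure D1:**
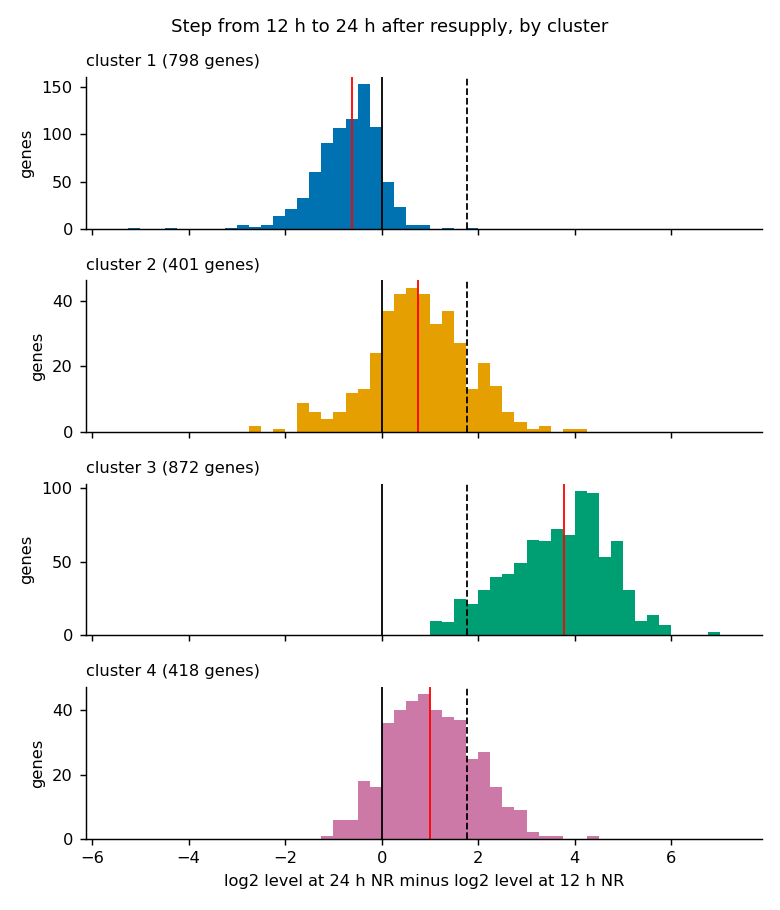
Number of genes by step (log2 level at 24 h NR minus log2 level at 12 h NR, in bins along the horizontal axis) in the 4 clusters. The red line is the cluster's median step, the solid black line is 0, and the dashed line is the shift of 1.76 in the column median. Cluster 3 begins at 1.02 and has its median at 3.78, while cluster 1 lies mostly below 0 with its median at -0.61.

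Centring on the column median divided the clusters into those that kept their side and those that did not. Cluster 3 remained higher with a median of 2.01, and cluster 1 remained lower with a median of -2.37. The medians of clusters 2 and 4 were 0.75 and 0.99 as deposited and became -1.01 and -0.77. For clusters 2 and 4 the direction of the step is therefore not settled by these tables. Against clusters 1 and 3 their place between the other clusters was the same on either scale.

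**Figure D2:**
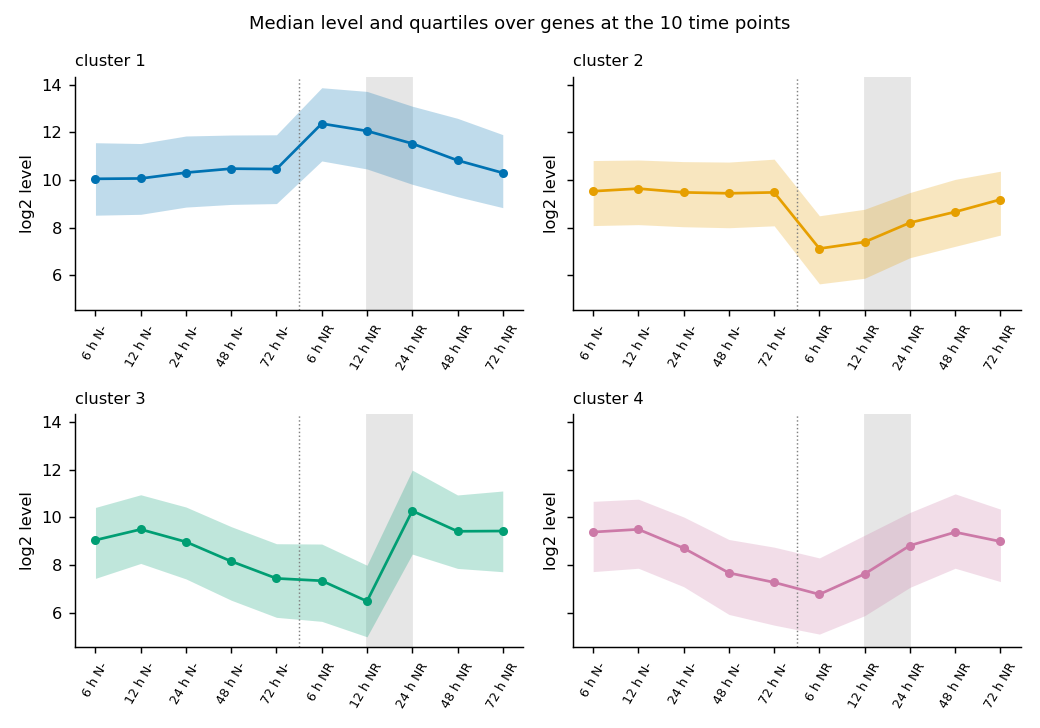
Median log2 level (line) and quartiles over genes (band) of each cluster at the 10 time points, with N- times to the left of the dotted line and the step shaded. Across the shaded step the median of cluster 3 goes from 6.48 to 10.27, while that of cluster 1 goes from 12.05 to 11.53.

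The composition of the transcripts was read from the values returned to a linear scale, as each cluster's percentage of the summed value of the 2489 genes. Such a percentage is unaffected by a shift of a whole column. Cluster 3 made up 2.62% of the sum at 12 h NR and 43.1% at 24 h NR. Cluster 1 made up 92.4% at 12 h and 48.9% at 24 h. Clusters 2 and 4 went from 1.93% to 3.16% and from 3.05% to 4.81%.

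The shares at 12 h NR were close to those 6 h earlier, when cluster 3 held 4.29% and cluster 1 held 92.7%. In deprivation cluster 3 had held 28.7% after 6 h and 11.1% after 72 h. At 48 h and 72 h NR it was 28.8% and 40.2%. The share at 24 h NR was thus the highest of the 10 times, with 40.2% at 72 h NR and 37.3% at 12 h N- next to it. Without replicates it is not known whether these 3 shares differ beyond the spread between cultures.

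**Figure D3:**
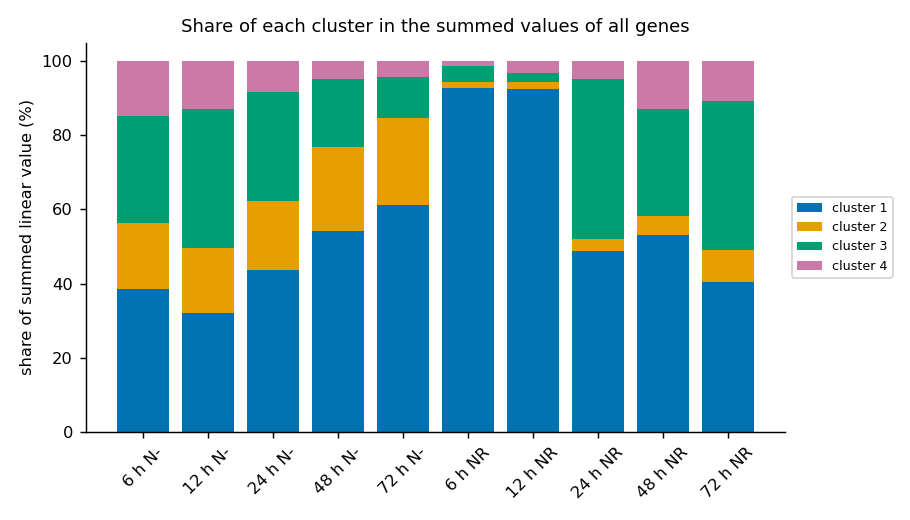
Percentage of the summed linear value of the 2489 genes held by each cluster at the 10 time points. Cluster 1 fills 92.4% of the bar at 12 h NR and 48.9% at 24 h NR, and cluster 3 goes from 2.62% to 43.1%.

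A few genes with very high values carried part of this. The 10 genes with the highest values at 24 h NR, singled out after their values were seen, held 16.8% of the sum then and 4.64% at 12 h NR. Of these 10 genes, 8 belonged to cluster 3 and 2 to cluster 1. The highest, maker-nanno_4991-augustus-gene-0.7, went from a log2 level of 14.55 to 19.46 and from 0.209% to 5.83% of the sum. A second gene on the same contig, maker-nanno_4991-snap-gene-0.8, went from 12.99 to 17.81. Whether these models on the same contig are separate transcripts is not known. Without the 10 genes, cluster 3 still went from 2.24% to 33.9% and cluster 1 from 92.5% to 56.5%.

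The largest steps upward were found in a pair of evidence-based models of cluster 3. The gene maker-nanno_3221-augustus-gene-0.2 had log2 levels of 12.71, 13.20, 12.17, 10.26 and 8.74 at the 5 N- times and of 9.08, 7.17, 14.00, 13.68 and 13.39 at the 5 NR times. Its lowest and highest values of the whole course were thus next to each other, and it stayed high to the end. The step was 6.83, which is 114-fold, or 5.07 relative to the shift of the column median. The levels of maker-nanno_342-augustus-gene-0.8 were 14.69, 15.41, 14.74, 12.75 and 11.05 in N- and 11.11, 9.04, 15.83, 15.09 and 15.36 in NR, with a step of 6.79. Both were among the heavier losers of deprivation, by 3.97 and 3.64 between 6 h and 72 h N-. At 24 h NR they stood 0.80 and 0.42 above their highest N- value.

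The largest steps downward belonged to a pair of gene predictions of cluster 1 with a short peak. The levels of augustus_masked-nanno_646-abinit-gene-0.0 were 3.62, 3.73, 6.25, 6.28 and 4.79 in N- and 9.97, 10.45, 5.32, 6.32 and 5.03 in NR. For augustus_masked-nanno_3156-abinit-gene-0.0 they were 3.30, 3.44, 4.83, 5.18 and 4.21 in N- and 9.50, 9.00, 4.51, 5.27 and 4.36 in NR. In both, 6 h and 12 h NR stood far above the other 8 times. From 12 h to 24 h NR they went down by 35.1-fold and 22.5-fold, and at 24 h they were back among their N- values.

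**Figure D4:**
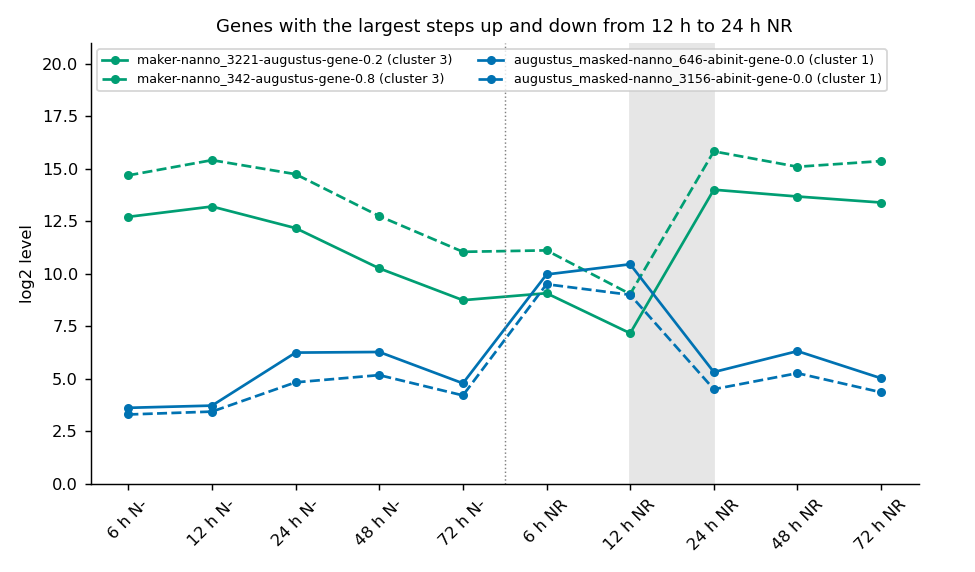
Log2 level at the 10 time points of the 2 genes with the largest step upward (green, cluster 3) and the 2 with the largest step downward (blue, cluster 1), with the step shaded. The green genes go from 7.17 to 14.00 and from 9.04 to 15.83, and the blue genes from 10.45 to 5.32 and from 9.00 to 4.51.

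Single genes ran against their cluster. In cluster 1 only 2 genes were higher, beside 232 lower, or 0 and 793 after centring. The gene augustus_masked-nanno_1130-abinit-gene-0.0 had 6.56 before and 8.49 after the step, and 4.63 at 48 h NR. The other, maker-nanno_97-augustus-gene-0.12, went from 9.23 to 10.64 and was at 7.85 at 72 h NR. In both, 24 h NR was the highest of the 10 times, but relative to the column shift their steps were 0.17 and -0.35.

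Within cluster 2, 159 genes were higher and 22 lower as deposited, but 8 were higher and 204 lower after centring. The largest step upward was that of augustus_masked-nanno_158-abinit-gene-0.0, with 10.99, 11.41, 10.88, 10.14 and 9.97 in N- and 7.14, 6.25, 10.46, 10.55 and 9.96 in NR. After it came maker-nanno_452-augustus-gene-0.15, which kept between 13.34 and 13.51 in all 5 N- times. In NR its levels were 10.00, 9.51, 13.51, 12.79 and 12.45, so its low values fell on the first 2 harvests. Among the lower genes, snap_masked-nanno_831-abinit-gene-0.19 went from 7.80 to 5.20 and stood at 6.67 and 6.50 afterwards, and augustus_masked-nanno_652-abinit-gene-0.3 went from 6.92 to 4.38 and then stood at 5.62 and 6.12. In both, 24 h NR was the lowest of the 10 times.

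Cluster 4 had 207 genes higher and 1 lower as deposited, and 12 higher and 169 lower after centring. Upward, the largest step was 4.43, in augustus_masked-nanno_445-abinit-gene-0.2, with N- levels of 7.55, 8.46, 5.32, 3.59 and 3.39 and NR levels of 3.94, 3.76, 8.19, 8.77 and 8.59. The gene maker-nanno_42-augustus-gene-1.30 went from 8.27 to 11.78. Downward, snap_masked-nanno_3883-abinit-gene-0.2 went from 8.33 to 7.29 and had 9.10 by 48 h NR. In the intervals on either side its median differences were 0.87 before the step (178 genes higher) and 0.71 after it, beside 0.99 at the step. After centring they were 0.95 and 1.00, beside -0.77 at the step, so the place of the step in the course of cluster 4 also turned with the scaling.

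Against the intervals around it, the step from 12 h to 24 h NR was the wider. From 6 h to 12 h NR 269 genes were higher (10.8%) and 343 lower (13.8%), over 6 h. From 24 h to 48 h NR 200 were higher (8.04%) and 497 lower (20.0%), over 24 h. After centring the balance turned in both, to 305 higher and 264 lower before the step and 378 and 278 after it. Cluster 3 had medians of -0.82 before and -0.87 after the step, or -0.73 and -0.58 after centring. For 1137 genes (45.7%) the step was the largest of the 9 differences between successive times, among them 855 of cluster 3 (98.1%). As deposited, the largest difference in clusters 1 and 2 was more often that from 72 h N- to 6 h NR, in 669 and 313 genes. After centring 1308 genes (52.6%) had their largest difference at the step, with 690 of cluster 3 and 440 of cluster 1. For cluster 1 this turned the order, with 352 genes at 72 h N- to 6 h NR, while cluster 2 kept it, with 74 and 282.

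In cluster 3 the step spanned nearly the whole range of most genes as deposited. As a percentage of the range between a gene's lowest and highest value, it had a median of 100% and a lower quartile of 95.1%. In 581 of the 872 genes the lowest of the 10 values was at 12 h NR and the highest at 24 h NR. The corresponding medians were 24.0% in cluster 1, 28.5% in cluster 2 and 35.5% in cluster 4. After centring the median was 94.7% in cluster 3, with a lower quartile of 67.2% and 374 genes lowest at 12 h and highest at 24 h NR. It was then 61.8% in cluster 1, 36.0% in cluster 2 and 46.1% in cluster 4. The clusters were formed from profiles over these same times. Ranges and largest differences by cluster thus describe the clusters and are no separate finding.

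The step was then set against what each gene had lost earlier, taken as its level at 6 h N- minus its level at 72 h N-, which uses neither time of the step. Over 2-fold was lost by 1075 genes (43.2%), of which 667 were in cluster 3, 368 in cluster 4, 32 in cluster 1 and 8 in cluster 2. Of these 1075, 862 were higher in the step (80.2%, beside 49.8% of all genes) and 4 lower (0.372%, beside 10.2%). Their median step was 3.14, with quartiles over genes of 1.39 and 4.27. The 1414 genes that had lost less, or gained, had a median step of -0.13, with 378 higher (26.7%) and 251 lower (17.8%). Relative to the column shift the medians were 1.38 and -1.90, with 600 genes higher and 181 lower among those that had lost over 2-fold and 113 and 985 among the rest. Genes that had lost over 2-fold as deposited therefore made up most of the genes higher in the step, on both scales of the step. The loss itself was not centred in this grouping. After centring, the median difference of the 1075 genes from 6 h to 72 h N- was -1.06, beside -1.89 as deposited. All genes here were selected by the authors for unequal levels in deprivation and resupply, so the shares describe the called genes.

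The relation was not even along the scale of loss. Genes with a loss of 0 or less (875 genes) had a median step of -0.44, with 85 higher and 210 lower. The median was 1.20 for losses of 0 to 1 (539 genes), 3.22 for 1 to 2 (594 genes), 3.31 for 2 to 3 (396 genes) and 2.16 over 3 (85 genes). In the last bin 61 of the 85 genes were in cluster 4 and 22 in cluster 3. Over all 2489 genes the rank correlation of step and loss was 0.67 (Pearson 0.64), a description over genes that share the same libraries and the same selection.

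Loss and step were not matched in the same way in the 2 clusters that had lost most. Cluster 4 had lost more than cluster 3, with medians of 2.06 and 1.57, yet its median step was 2.79 smaller. Within cluster 3 the median step went up through the bins of loss, from 2.52 (16 genes with no loss) to 2.87, 3.93, 4.27 and 4.50 (22 genes with a loss over 3). In cluster 4 it was 0.78, 0.90, 1.16 and 1.23 over the 4 bins above 0. The rank correlation was 0.56 over the 872 genes of cluster 3, 0.18 over the 418 of cluster 4, 0.15 over the 401 of cluster 2 and -0.02 over the 798 of cluster 1. The clusters were formed from profiles that hold all 4 columns used here, and the part of this in the correlations was not tested.

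**Figure D5:**
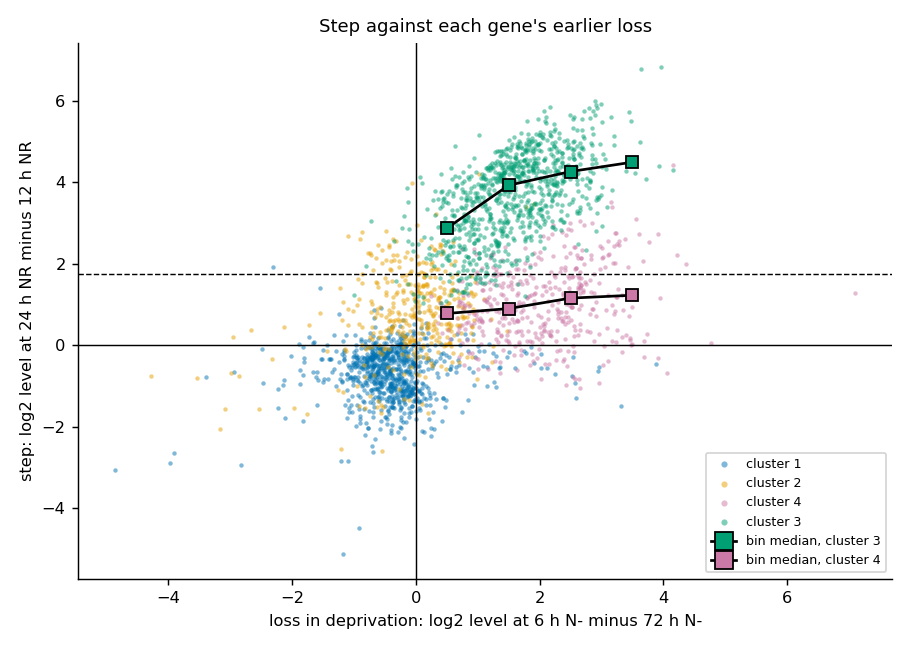
Step (log2 level at 24 h NR minus 12 h NR) against earlier loss (log2 level at 6 h N- minus 72 h N-), 1 point per gene, coloured by cluster, with squares for the median step in bins of loss above 0 in clusters 3 and 4 and a dashed line at the column shift of 1.76. The squares go from 2.87 to 4.50 in cluster 3 and from 0.78 to 1.23 in cluster 4.

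Within cluster 3 the step went more closely with late loss than with the total. Loss between 48 h and 72 h N- had a rank correlation of 0.73 with the step over the 872 genes. Loss between 24 h and 48 h N- had 0.40, and loss between 6 h and 24 h N- had -0.17. Ranked by their late loss into 4 groups of 218 genes, the genes had median steps of 2.65, 3.36, 4.13 and 4.60, and the quartiles over genes of the lowest group (2.09 and 3.31) did not reach those of the highest (4.22 and 4.99). The same held at both ends of abundance, with 0.65 over the 436 genes of lower mean N- level and 0.76 over the 436 of higher level. In cluster 4 the order of the 3 periods was alike with smaller values, at 0.32 for late, 0.29 for middle and -0.29 for early loss. Its 4 groups by late loss had median steps of 0.58, 0.88, 1.18 and 1.65. In clusters 1 and 2 late loss had -0.05 and 0.19. Over all genes the values were 0.65 for late, 0.66 for middle and 0.26 for early loss, beside 0.67 for the total. Late loss was thus not the closest there. These are descriptions over genes that share libraries, and the smallest differences between them cannot be weighed without replicates. The clusters were formed from profiles that hold all the times used here. The part of this in the correlations within clusters was not tested.

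The relation had many exceptions. Of the 1075 genes that had lost over 2-fold 213 were not higher in the step, and 378 genes that had lost less were. Among the 1075 genes that had lost over 2-fold, the lowest steps were those of augustus_masked-nanno_1033-abinit-gene-0.0 and snap_masked-nanno_4937-abinit-gene-0.6, both of cluster 1. The first had 10.17, 8.13, 8.08, 7.66 and 6.85 in N- and 10.37, 12.62, 11.13, 12.64 and 10.42 in NR. The second went from 13.10 to 11.80 after 7.91 at 72 h N-. Both had thus passed their 6 h N- level before the step began, and at 24 h NR they were still 0.96 and 1.30 above it. In the other direction, genes without loss could be much higher. The gene maker-nanno_746-augustus-gene-0.5 of cluster 3 lay between 9.32 and 9.91 in all 5 N- times. Its step led from 8.20 to 12.05, which is 2.14 above its highest N- value.

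The path of the 1075 genes that had lost over 2-fold can be followed through medians over genes, of which neighbours share a time point. From 6 h to 72 h N- the median difference was -1.89, and from 72 h N- to 12 h NR it was a further -0.45. After centring these differences were -1.06 and -0.035, so the size of the further fall depended on the scaling. At 12 h NR these genes were 2.26 below 6 h N- in the median. The step of 3.14 took them to 0.79 above it. After centring, the median differences from 6 h N- were -1.01 at 12 h NR and 0.28 at 24 h NR.

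Clusters 3 and 4 took this path in different ways. The 667 genes of cluster 3 were at -2.55 against 6 h N- at 12 h NR and at 1.35 at 24 h NR, or at -1.30 and 0.84 after centring. The 368 of cluster 4 were at -1.54 and then at -0.50, or at -0.28 and -1.01 after centring. The median of these cluster 3 genes was therefore above 6 h N- at 24 h NR on both scales. That of these cluster 4 genes was below it on both, though within 2-fold as deposited. Between 72 h N- and 12 h NR cluster 4 had already regained 0.53 in the median, while cluster 3 had moved by -0.75. After centring these were 0.95 and -0.33.

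Over all 2489 genes, 750 were above, 199 within 2-fold of and 1540 below their 6 h N- level at 12 h NR. At 24 h NR these were 1182, 970 and 337. After centring they were 840, 908 and 741 at 12 h, and 739, 1178 and 572 at 24 h. In cluster 3, 821 genes were below at 12 h and 0 were at 24 h, when 560 were above and 312 within. For 534 of them the step led from more than 2-fold below to more than 2-fold above in 12 h. After centring 198 genes did so. In cluster 1 the number above went from 746 to 618, or from 798 to 382 after centring. In cluster 4 the number below went from 353 to 89, which after centring became 82 and 210. Within 2-fold at 24 h were 327 of its 418 genes, or 207 after centring.

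Levels outside everything seen in deprivation were also counted. More than 2-fold above a gene's highest N- value at 24 h NR were 318 genes of cluster 3, 382 of cluster 1 and 2 of cluster 4, and 172 of cluster 2 lay as far under their lowest. At 12 h NR cluster 3 had 279 genes below and 0 above that range, and cluster 1 had 597 above. After centring, cluster 3 had 82 genes below at 12 h NR and 201 above at 24 h NR, and at 24 h cluster 1 had 38 above and cluster 2 had 297 below. Most genes of cluster 3 kept within 2-fold of their deprivation range, 593 at 12 h and 554 at 24 h NR, or 790 and 671 after centring.

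The order of abundance among genes moved in the same interval. The rank correlation of levels at 12 h NR over the 2489 genes was 0.87 with 72 h N- and 0.76 with 6 h N-. At 24 h NR it was 0.75 with 72 h N-, 0.85 with 6 h N- and 0.88 with 24 h N-. The order at 12 h NR was thus nearest, among the N- times, to the end of deprivation, and the order at 24 h NR nearest to 24 h N-. These values do not change when a column is shifted, and they rest on the wide range of levels that all columns share.

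The same elapsed hours in deprivation were set beside the step. From 12 h to 24 h N- 48 genes were higher (1.93%) and 227 lower (9.12%), and the median gene differed by -0.25. Cluster 3 had a median of -0.58 there, with 119 genes lower and 0 higher, and cluster 4 had -0.78, with 97 lower and 0 higher. Cluster 1 had 0.28 and cluster 2 had -0.14. Relative to the column medians, clusters 3 and 4 were at -0.35 and -0.55 in N-, while in NR they were at 2.01 and -0.77. Centred medians of cluster 1 were 0.51 in N- and -2.37 in NR, and those of cluster 2 were 0.09 and -1.01. The medians of clusters 1, 2 and 3 thus differed in sign between NR and N- on both scales, although cluster 2 exchanged its signs, and those of cluster 4 did so only as deposited. No test of these differences could be made.

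Most genes past 2-fold in the step were still past it later. Of the 1240 genes that were higher, 1196 (96.5%) were still more than 2-fold above their 12 h NR value at 48 h and 1189 (95.9%) at 72 h. These counts share the 12 h NR value, so a low value there would raise all of them. From 24 h to 48 h NR the higher genes of cluster 3 had a median difference of -0.87, and 371 of the 872 were more than 2-fold lower. Those of cluster 4 were at 0.47. Of the 255 genes that were lower in the step, 224 (87.8%) were still more than 2-fold below 12 h NR at 48 h and 218 (85.5%) at 72 h. Of the 22 lower genes of cluster 2, 9 and 3 were still below. After centring, 576 of the 713 higher genes (80.8%) were still above at 48 h and 618 (86.7%) at 72 h. Of the 1166 lower genes 859 (73.7%) and 861 (73.8%) were still below, with 789 and 793 of the 793 in cluster 1 but 60 and 28 of the 204 in cluster 2 and 10 and 40 of the 169 in cluster 4.

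The step of cluster 3 was larger in abundant genes. By mean N- level its median was 2.11 below 4 (22 genes), 2.94 from 4 to 6, 3.59 from 6 to 8, 4.02 from 8 to 10, 4.23 from 10 to 12 and 4.43 above 12 (46 genes). The other clusters had no steady gradient, and cluster 4 ran from 0.64 in its 7 weakest genes through 1.07 from 6 to 8 to 0.38 in its 19 strongest. The sources used here do not give the authors' log2 transformation. Some transformations pull in low counts, and the part of this in the gradient was not tested.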

How the data were processed

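The labels describe 44 RNA-seq libraries of total RNA in 11 groups. Reads (single-end, 50 bases) were trimmed with Trimmomatic 0.32, per the labels' protocols, and aligned to the CCMP1779 assembly with STAR 2.3.0e, keeping unique hits with at most 4 mismatches and introns up to 10000 bp. Exon reads were counted with HTSeq 0.6.1 and tested with DESeq2, and the genes that passed were clustered in MeV 4.8.1 with k = 4, per the labels' protocols. Unique mapping undercounts near-identical genes. The deposited values are on a log2 scale, inferred from their range, with 1 joined value for each gene and time. How libraries were scaled, transformed and joined is not given in the sources used here. The deposited tables also number the genes, and that number was not used as a measurement. The 0 h group was not analysed here. Each value column stands for a group, not for a library, and 0 columns of per-sample values were left without a match.

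Differences, counts past 1, medians, quartiles and correlations over genes were computed in Python 3.11.15 (pandas 2.3.3, numpy 2.4.6, scipy 1.17.1, matplotlib 3.10.9). The computation was tested on simulated data. With 1 value per time, no test and no left-out library was possible. Linear shares used 2 raised to each value. Alternatives were 3 scalings of the columns, a minimum mean level of 6, limits of 1.5 and 2, other definitions of loss, another reference time and, chosen after seeing the data, left-out times and left-out abundant genes. Named genes were the 2 with the largest steps each way over all genes, per cluster, and among genes with a loss over 1 or of 0 or less. None of the 2489 identifiers (0 matches) occurred in the reference table of 160 organelle genes, and no sequence is shown. The comparison, lists and rules were chosen with earlier results of these data known.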

Additional observations from a re-analysis of the deposited data

Results flagged for a closer look

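Over the same elapsed hours, levels ran in opposite directions in resupply and deprivation for some genes. Over all 2489 genes, 1240 (49.8%) were higher and 255 (10.2%) lower in NR. In N- 48 (1.93%) were higher and 227 (9.12%) lower. In 188 genes the level was more than 2-fold higher from 12 h to 24 h NR and more than 2-fold lower from 12 h to 24 h N-. Of these, 119 belonged to cluster 3, 68 to cluster 4 and 1 to cluster 2. The reverse, lower in NR and higher in N-, was found in 20 genes, 12 of cluster 1 and 8 of cluster 2. In the same direction past 2-fold there were 3 genes higher in both and 0 lower in both. With columns centred on their medians the opposite numbers were 24 and 90, of which 23 of the 24 were in cluster 3 and 67 of the 90 in cluster 1. The centred totals were 713 genes higher and 1166 lower in NR, and 96 higher and 60 lower in N-. The difference between resupply and deprivation was not tested, since each time has 1 joined value. The authors had called these genes for such a difference, so the numbers describe the selection as well.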

How the results depend on the processing

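Of 88 values recomputed under 13 settings for 16 results, 37 stayed within 1.5 times the reported value (0.1 for correlations), 45 moved further and 6 turned in direction. The cause was not tested except where the setting itself gives it. The 6 that turned were the medians of clusters 2 and 4 under 3 scalings: -1.01 and -0.77 centred on the median, -0.60 and -0.37 centred on the mean, and -0.91 and -0.56 with quantile scaling.

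The counts higher and lower became 713 and 1166 centred on the median, 816 and 1014 on the mean, and 719 and 779 with quantile scaling. In the same order the median of cluster 1 became -2.37, -1.96 and -1.18, and that of cluster 3 became 2.01, 2.42 and 1.88. The median of genes that had lost over 2-fold became 1.38, 1.78 and 1.31, and that of the rest -1.90, -1.49 and -0.93. Centred on the median, 739 genes were above and 572 below their 6 h N- level at 24 h NR. Past a limit of 1.5 there were 93 genes lower, and past 2 there were 30.

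With loss counted from 12 h N-, the correlations with the step were -0.13, 0.30 and 0.38 in clusters 1, 2 and 4. Counted from the highest N- value it was 0.30 in cluster 4. Counted to 48 h N-, which leaves out the late loss, it was 0.57 over all genes, 0.22 in cluster 3 and 0.051 in cluster 4. The part of the late loss in these lower values was not tested.

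A pair of settings was chosen after seeing the data. With 12 h NR left out, 24 h against 6 h NR gave 387 genes lower, medians of -0.92, 1.14 and 1.95 in clusters 1, 2 and 4, and correlations of 0.31, 0.29 and 0.41 there. With 24 h NR left out, 48 h against 12 h NR gave 544 genes lower, medians of -1.22, 1.25 and 1.71, a median of -0.63 for genes that had lost less, and correlations of 0.37, 0.29, 0.71 and 0.36 in clusters 1 to 4. As deposited, cluster 3 was higher without either time, with medians of 2.98 and 2.87. Its genes were grouped on profiles that hold the left-out times too, so this is no separate support. Keeping the 2244 genes with a mean of at least 6 moved no value past these bounds.

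No paired analysis was possible because the tables hold 1 joined value per time, and for the same reason no setting leaves out a replicate. Called genes are not neutral for scaling, and the clusters were formed from the same columns. Depth and the spread between cultures are unknown here, so the smallest difference that can be told from noise is unknown too.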

Other observations

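The kind of gene model went with the step over all genes, and less within clusters. Of 1623 models predicted on masked sequence 55.6% were higher in the step, and of 866 models promoted by evidence 39.0% were, or 31.3% and 23.7% after centring. Predictions made up 634 of the 872 genes of cluster 3 and 426 of the 798 of cluster 1. Within cluster 3 the median step was 3.70 for predictions and 4.00 for evidence-based models, whose median N- levels were 8.29 and 9.81. Within cluster 1 it was -0.65 and -0.56, within cluster 2 it was 0.76 and 0.74, and within cluster 4 it was 1.05 and 0.81. The percentages higher were 42.9% and 32.8% in cluster 2 and 51.7% and 44.5% in cluster 4. They were 0.235% and 0.269% in cluster 1, and 100% for both kinds in cluster 3.

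Genes on the same contig had closer steps than genes in general. The 2489 genes lay on 1215 contigs, of which 483 held at least 2 genes and the fullest held 23. Over 3879 same-contig pairs the median absolute difference in step was 1.55, beside 1.99 over all pairs. Among pairs with both genes in cluster 3 it was 0.74 over 501 same-contig pairs and 1.00 over all pairs. Pairs share genes, so these are descriptions. Whether some same-contig models are parts of 1 transcript was not tested.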
